A study of Mus musculus with 3 samples.

Results

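Antigen receptor transcripts were followed here in thymocytes that cannot assemble receptor genes of their own. The probe sets were chosen by gene symbol, as every probe set whose annotation names a V, D, J or constant segment of a T cell receptor (TCR) or immunoglobulin (Ig) locus. This gave 50 of the 24800 probe sets deposited. The mice were female C57BL/6 animals of 3 to 4 weeks, and all 3 genotypes were Rag1-/- and carried the Vγ1Vδ6.4 TCR transgenes. The groups were PLZF lu/lu, homozygous for the luxoid point mutation of Zbtb16, the gene that encodes PLZF, then PLZF +/lu and PLZF +/+. CD4+CD8α− thymocytes, the population that holds the γδNKT cells of these mice, were sorted and hybridised to 1 Affymetrix Mouse Gene 1.0 ST array per genotype. The number of mice behind each array and the promoters of the transgenes are not stated in the labels or methods. Because there is no replicate, no difference below has an error or a test, and 2-fold is used as a rule of size only.

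Antigen receptor genes lie in the germline as arrays of V, D and J segments next to constant regions. The Rag1 and Rag2 recombinase cuts and joins these segments in developing lymphocytes, so that a γδ T cell carries a joined γ and a joined δ chain gene. Without Rag1 the endogenous loci stay unjoined, although unjoined segments can still be transcribed, which is known as germline transcription. In these mice a joined receptor comes from the transgenes.

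Of the 50 probe sets, 21 belong to TCR loci and 29 to Ig loci. TCRα has 17, TCRβ 1, TCRγ 2, TCRδ 1, Ig heavy 10, Ig κ 17 and Ig λ 2. More than 1 symbol is listed for 29 of the 50, since segments of a family are near copies of each other, and such a probe set cannot be given to any 1 of its segments. In addition, 32 of the 50 share an annotated transcript with another of the 50, so they are not independent of each other. The 17 TCRα probe sets all name V segments. No probe set names Trac, a Trbc or Trgc gene, Trdc, the V segment Trgv1 or a segment with dv6 in its name, so the transgenic Vγ1 and Vδ6.4 chains have no probe set of their own among the 50. More than one naming system exists for mouse Vγ segments, and the symbols here are those of the annotation.

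On the arrays as a whole, the genotypes had median intensities of 159.7 in PLZF lu/lu, 161.8 in PLZF +/lu and 160.0 in PLZF +/+ cells. Zbtb16 was at 2890 in PLZF lu/lu, 6143 in PLZF +/lu and 8796 in PLZF +/+ cells. The luxoid transcript can still hybridise, so this does not fully check the labels. Cd4, the coreceptor used for the sort, was at 7191 in PLZF lu/lu, 6208 in PLZF +/lu and 6401 in PLZF +/+ cells, and all 10 measured T cell genes of a list of 11 were above background on each array. Background is the intensity of 108 below which 95% of the values of 1033 olfactory receptor probe sets lie, as T cells are not known to use these receptors.

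Both TCRγ probe sets and most TCRα probe sets exceeded that background, while most Ig probe sets did not. In all, 16 of the 50 (32%) were above background on each of the 3 arrays and the other 34 were above it on none, against 59.5% of all probe sets above it on each array. Of the 21 TCR probe sets 13 were above background, namely 10 of TCRα, 1 of TCRβ and 2 of TCRγ. Of the 29 Ig probe sets 3 were above it, namely 2 of the heavy chain and 1 of Ig κ. Values were equal on all 3 arrays for 24 of the 50 (48%), against 45.1% of all probe sets, so an equal value is common in these data and says little about a single gene.

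**Figure D1:**
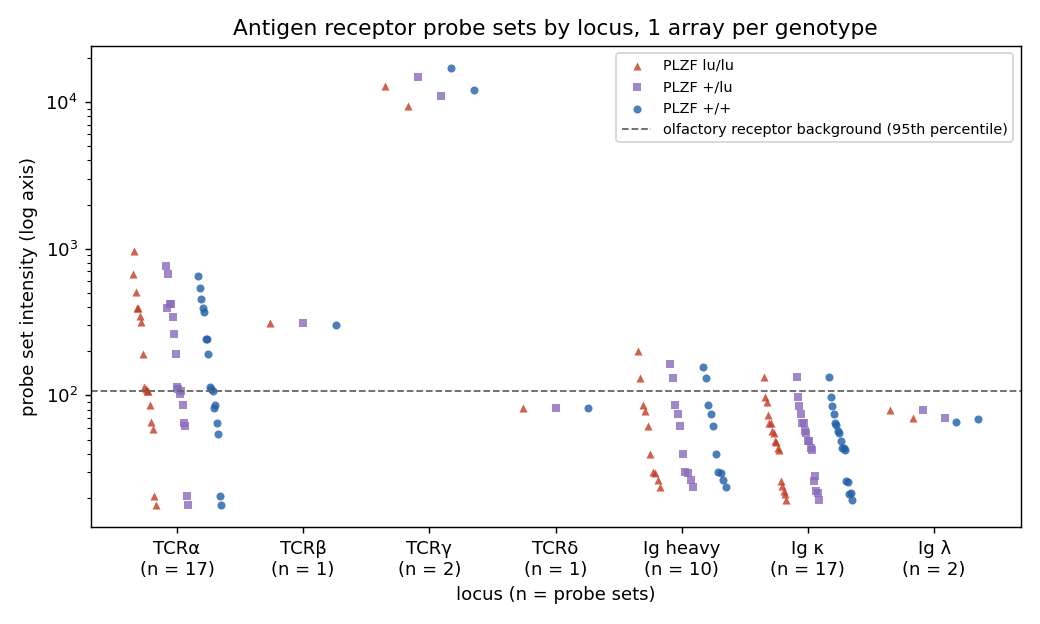
Intensity of each of the 50 antigen receptor probe sets (log axis) by locus, with triangles for PLZF lu/lu, squares for PLZF +/lu and circles for PLZF +/+, 1 array each; the dashed line is the olfactory receptor background of 108. Both TCRγ probe sets lie far above the line on every array, while 26 of the 29 Ig probe sets and the TCRδ probe set lie below it.

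No antigen receptor probe set differed by more than 2-fold between PLZF lu/lu and PLZF +/+ cells (0 of 50), where 0.589% of all probe sets did. Between PLZF +/lu and PLZF +/+ cells the number was also 0 of 50, against 0.234% of all. A share this small would give fewer than 1 probe set among 50, so the counts of 0 do not set these genes apart from the rest of the array. At 1.5-fold, 1 of 50 differed between PLZF lu/lu and PLZF +/+, against 1.77% of all. The median log2 difference, PLZF lu/lu minus PLZF +/+, was 0.00 over the 50, 0.02 over the 16 above background and 0.00 over all probe sets.

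Both TCRγ probe sets were lower in PLZF lu/lu and in PLZF +/lu than in PLZF +/+. The γ chain pairs with the δ chain to form the γδ TCR at the cell surface. Probe set 10403821, annotated with Trgv6, Trgv4 and Trgv2, had an intensity of 12772 in PLZF lu/lu, 14825 in PLZF +/lu and 17087 in PLZF +/+ cells. Probe set 10407940, annotated with the same 3 segments, was at 9349, 10924 and 12093 in the same order. In both, PLZF lu/lu was lowest, PLZF +/+ highest and PLZF +/lu in between. The log2 difference, PLZF lu/lu minus PLZF +/+, was -0.42 for probe set 10403821 and -0.37 for probe set 10407940, which is 1.34-fold and 1.29-fold lower in PLZF lu/lu. For PLZF +/lu minus PLZF +/+ it was -0.20 and -0.15. A log2 difference of -0.37 or below was found at 3.43% of the 15090 probe sets above background on any array, and the order of PLZF lu/lu below PLZF +/lu below PLZF +/+ at 10.9% of them. These γ probe sets share 9 annotated transcripts, out of 9 listed for 10403821 and 10 for 10407940, so they are close to a repeated reading of the same sequences rather than separate genes. Transcripts of the transgene and of the unjoined endogenous γ locus cannot be told apart by these probe sets, and neither can fewer cells with the transcript and less transcript per cell. In the RefSeq gene order Trgv4 and Trgv6 lie side by side in the group that ends with Trgj1 and Trgc1. Trgv2 comes directly after Trgc2 and Trgj2, and on its other side lie Trgv1, Trgj4 and Trgc4 in that order.

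The chains that carry the TCR to the surface did not show the order seen at TCRγ. Cd3e, a CD3 chain, was at 10599 in PLZF lu/lu, 11334 in PLZF +/lu and 10550 in PLZF +/+ cells. Cd3g was at 11410, 12236 and 11388, and Cd3d at 3497, 2996 and 3469. In PLZF lu/lu these 3 chains differed from PLZF +/+ by 0.00 to 0.01 on the log2 scale, while PLZF +/lu stood apart from both by 0.10 for Cd3e and Cd3g and by -0.21 for Cd3d relative to PLZF +/+. Cd247, the ζ chain that starts signalling, was at 1840 on all 3 arrays. Ptcra, the pre-TCR α chain that pairs with a new β chain, was at 167 on all 3 arrays. Of the 13 receptor partner genes listed, all measured, 5 were higher in PLZF lu/lu than in PLZF +/+, 2 lower and 6 equal. Among all probe sets above background on any array, 21.9% were higher, 34.8% lower and 43.2% equal. None of the 13 was past 2-fold, against 0.589% of all probe sets, and their median log2 difference was 0.00. Of the 13, 10 were above background, and 1 of these had the order seen at TCRγ, namely Cd79b, a chain of the B cell receptor. That order was held by 10.9% of all probe sets above background on any array, so its absence is common and does not set the partner chains apart.

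**Figure D2:**
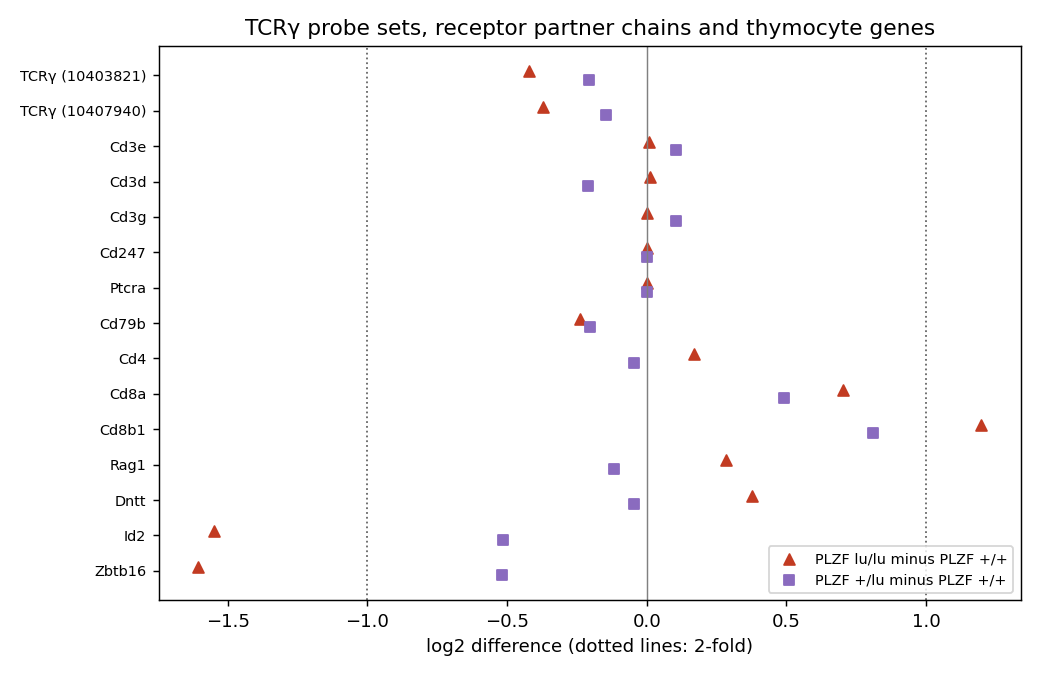
Log2 difference from PLZF +/+ for PLZF lu/lu (triangles) and PLZF +/lu (squares) at the TCRγ probe sets and at named partner chain, coreceptor, recombination and regulator genes, 1 array per genotype; dotted lines mark 2-fold. The TCRγ triangles lie at -0.42 and -0.37, those of Cd3e, Cd3d, Cd3g and Cd247 between 0.00 and 0.01, and Cd8b1, Id2 and Zbtb16 lie past 2-fold.

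TCRα V segments were detected in these Rag1-/- cells, and none of the 17 probe sets was lower in PLZF lu/lu than in PLZF +/+. Among the 10 above background, 7 were higher in PLZF lu/lu and 3 equal, with a median log2 difference of 0.06, against 21.9% higher, 34.8% lower and 43.2% equal among all probe sets above background on any array. These probe sets overlap in the segments they name, and Trav3-3 is listed, with other segments, for 10 of the 17. In the RefSeq gene order Trav3-3 lies between Trav15-2-dv6-2, a segment with dv6 in its name, and Trav9-4. Whether transcripts of the transgenes add to the TCRα values was not tested.

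The largest difference among the 50 was that of probe set 10415015, annotated with Trav7-4, Trav3n-3 and Trav3-3. Its intensity was 966 in PLZF lu/lu, 393 in PLZF +/lu and 537 in PLZF +/+ cells. PLZF lu/lu was thus highest and PLZF +/lu lowest, so the level did not follow the number of mutant alleles. It was 1.80-fold higher in PLZF lu/lu than in PLZF +/+, a log2 difference of 0.85, and a difference of this size or more upward was found at 0.577% of the probe sets above background on any array. Against PLZF +/lu it was 2.46-fold higher in PLZF lu/lu, the single antigen receptor probe set past 2-fold between these genotypes (1 of 50, against 0.319% of all probe sets). That pair of genotypes was chosen after seeing the data.

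Other probe sets naming Trav3-3 did not share this pattern. Of the 3 that name Trav3n-3 and Trav3-3 and nothing else, probe set 10414805 was at 503 in PLZF lu/lu, 675 in PLZF +/lu and 456 in PLZF +/+ cells. Probe set 10414967 was at 391, 420 and 369, and probe set 10414911 at 348, 341 and 243. PLZF +/lu was highest in the first and second of these and close to PLZF lu/lu in the third. Their log2 differences, PLZF lu/lu minus PLZF +/+, were 0.14, 0.09 and 0.51, so the same pair of segments gave unlike differences in different probe sets. Probe set 10414960, which adds Trav13-5 to the pair, was at 394 in PLZF lu/lu, 422 in PLZF +/lu and 394 in PLZF +/+ cells.

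Trav13-5, a V segment that lies between Trav12-4 and Trav17 in the RefSeq gene order, has a probe set of its own. It was at 667 in PLZF lu/lu, 762 in PLZF +/lu and 650 in PLZF +/+ cells, a log2 difference of 0.04 between PLZF lu/lu and PLZF +/+ and of 0.23 between PLZF +/lu and PLZF +/+. PLZF +/lu had the highest value without a tie at 4 of the 10 TCRα probe sets above background, against 12.9% of all probe sets above background on any array. Trav9d-3 and Trav9d-4, which share probe set 10414891, were at 315, 260 and 243 in PLZF lu/lu, PLZF +/lu and PLZF +/+ cells. PLZF lu/lu minus PLZF +/+ was 0.37 on the log2 scale, with PLZF +/lu in between.

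The remaining TCRα probe sets above background were equal or nearly so on the 3 arrays. Probe set 10414955, annotated with Trav9d-3, Trav3n-3, Trav9d-4 and Trav3-3, was at 193 in PLZF lu/lu, 193 in PLZF +/lu and 192 in PLZF +/+ cells. The shared probe set of Trav12n-1 and Trav12-1 was at 114 and that of Trav19 at 110 on all 3 arrays, both just over the background of 108. The 7 TCRα probe sets below background include Trav7d-4 at 20.7 and Trav12-2 at 17.8, each the same on all 3 arrays, and Trav7n-5 at 66.2 in PLZF lu/lu and 64.7 in the other genotypes.

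**Figure D3:**
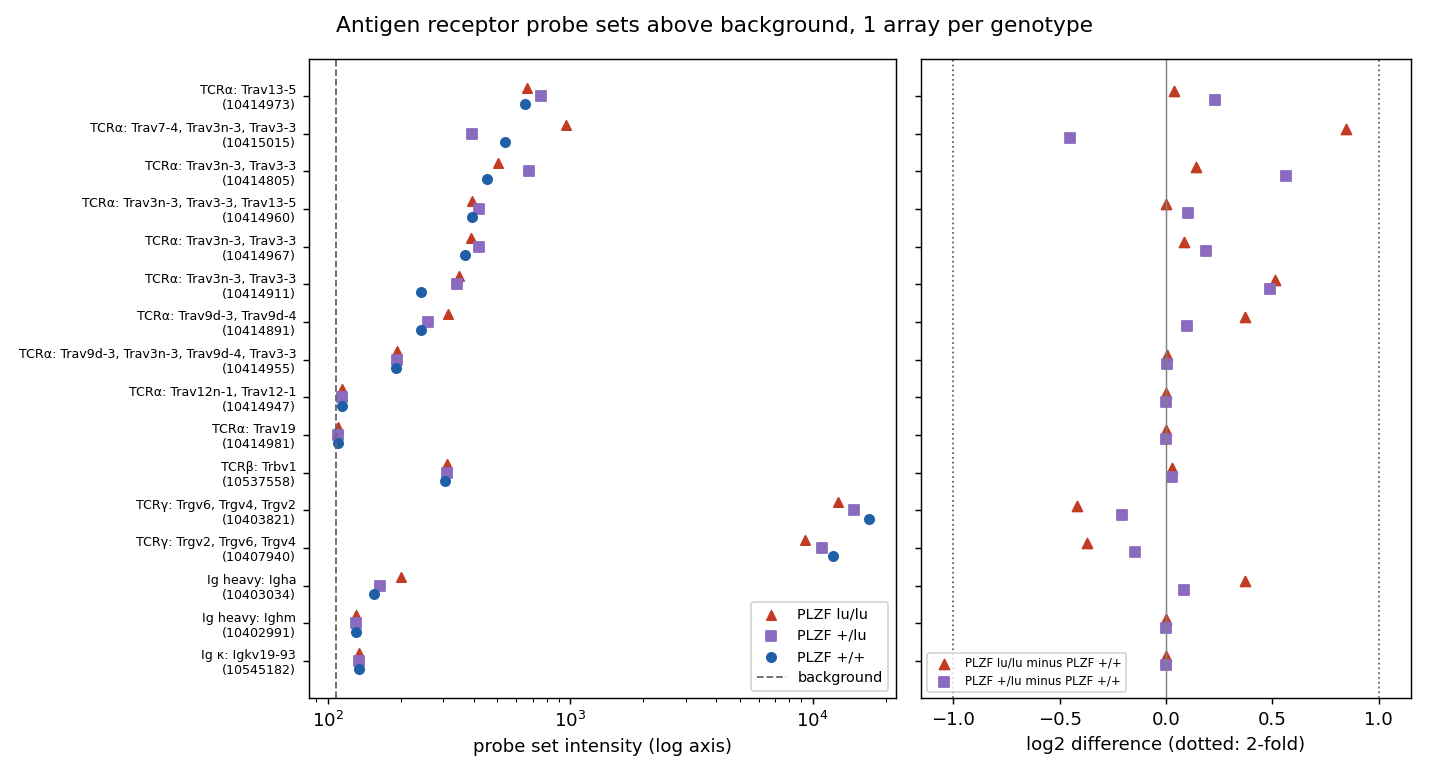
The 16 antigen receptor probe sets above background, with intensities on a log axis (left; triangles PLZF lu/lu, squares PLZF +/lu, circles PLZF +/+, 1 array each) and log2 differences from PLZF +/+ (right; dotted lines mark 2-fold). Both TCRγ probe sets lie left of 0 for both mutant genotypes, probe set 10415015 has its triangle at 0.85 and its square at -0.45, and no symbol passes a dotted line.

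The α locus is normally joined in CD4+CD8+ thymocytes, whose genes were read beside these values. Of 9 measured genes of a list for this stage with 10 members, 5 were higher in PLZF lu/lu than in PLZF +/+, 1 lower and 3 equal. Among all probe sets above background on any array, 21.9% were higher, 34.8% lower and 43.2% equal. None of the 9 was past 2-fold, against 0.589% of all probe sets, and their median log2 difference was 0.04. The CD8 genes were kept in a separate list of coreceptors. The summed intensity of the stage list was 9814 in PLZF lu/lu, 9555 in PLZF +/lu and 8535 in PLZF +/+ cells. Most of that sum was Themis alone, at 6719, 6532 and 5612 in the same order, so it says little about the other members. Rag2 was the member of the list below background on every array. Cd8b1, the CD8 β chain, was at 2958 in PLZF lu/lu, 2263 in PLZF +/lu and 1290 in PLZF +/+ cells, and Cd8a, the CD8 α chain, at 601, 519 and 369. Both coreceptors were highest in PLZF lu/lu and lowest in PLZF +/+, and Cd8b1 was past 2-fold, at 2.29-fold higher in PLZF lu/lu than in PLZF +/+. Of the 10 TCRα probe sets above background, 2 had the same order, namely 10414911 and 10414891. The share of all probe sets with that order was not counted, so nothing is drawn from this number. The part of the listed stage genes and coreceptors in the TCRα values was not tested.

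No recombination gene differed by more than 2-fold between PLZF lu/lu and PLZF +/+. Rag1, the recombinase gene that the mice lack, had a probe set intensity of 278 in PLZF lu/lu, 211 in PLZF +/lu and 229 in PLZF +/+ cells. This is above background on each array, and which part of the gene the probes cover is not stated in the annotation, so it does not check the Rag1-/- label. Rag2, its partner, was at 51.2, 49.5 and 51.2, below background. Dntt, the enzyme that adds nucleotides at the joints, was at 210 in PLZF lu/lu, 157 in PLZF +/lu and 162 in PLZF +/+ cells. Of 17 listed recombination and end-joining genes 15 were measured, with 5 higher in PLZF lu/lu than in PLZF +/+, 2 lower and 8 equal. For all probe sets above background on any array, 21.9% were higher, 34.8% lower and 43.2% equal. None of the 15 was past 2-fold, against 0.589% of all probe sets, so this count of 0 does not set them apart. Hmgb2, a DNA-bending protein that assists the recombinase, was at 927 in PLZF lu/lu, 1057 in PLZF +/lu and 1282 in PLZF +/+ cells. These values are from the 1 of its 4 probe sets with the highest mean.

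TCRβ and TCRδ are each seen through 1 probe set. Trbv1, a V segment of the β locus, was at 310 in PLZF lu/lu, 310 in PLZF +/lu and 304 in PLZF +/+ cells, above background on each array and with a log2 difference of 0.03. Trdv2-2, a V segment of the δ locus that lies between Trdv2-1 and Trav23 in the RefSeq gene order, was at 81.7 on all 3 arrays and below background. Germline transcription of other β and δ segments was not analysed here.

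Ig probe sets were mostly within the background. Ig heavy and light chains form the receptor of B cells. The 10 heavy chain probe sets each name Ighm, Igha or Ighg3, the constant genes of IgM, IgA and IgG3, and 3 of them name Ighm alone. Of these 3, probe set 10402991 was at 132, above background, and probe sets 10402864 and 10403069 at 86.5 and 26.5 below it, each with the same value on all 3 arrays. Probe set 10403034, annotated with Igha, was at 201 in PLZF lu/lu, 165 in PLZF +/lu and 155 in PLZF +/+ cells, a log2 difference of 0.37 between PLZF lu/lu and PLZF +/+. A further Igha probe set, 10403063, was at 62.2 on all 3 arrays, so probe sets of the same gene differ in whether they exceed background and in whether they vary. Ighg3 in probe set 10403046 was at 40.1 on all 3 arrays. The 4 heavy chain probe sets with several symbols lay between 23.6 and 77.9.

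Of the 17 Ig κ probe sets, Igkv19-93 was the one above background, at 134 on all 3 arrays. The 4 that include the constant gene Igkc lay below background, the highest of them at 96.8 on all 3 arrays. The log2 differences of the 17, PLZF lu/lu minus PLZF +/+, ran from -0.10 to 0.13, with 4 higher, 3 lower and 10 equal. Among them, 2 also list Map3k20, a kinase gene outside the Ig loci, and both were equal on all 3 arrays. The 2 Ig λ probe sets, each naming Iglv1, Iglc1 and Iglv2, were below background. Probe set 10438405 was at 79.7 in PLZF lu/lu, 79.7 in PLZF +/lu and 65.4 in PLZF +/+ cells, and probe set 10438415 at 69.8, 69.8 and 68.5.

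Genes of B cells lay on both sides of the background beside these Ig values. Of 16 listed genes 15 were measured. Above background on each array were 7 of the 15, against 59.5% of all probe sets. Of the rest, 7 were above it on none and 1 on a single array. Those above it on each array were Cd79b, Pax5, Vpreb2, Vpreb3, Igll1, Blk and Pou2af1. Pax5, a factor that defines the B lineage, was at 108.0, 108.6 and 108.0 in PLZF lu/lu, PLZF +/lu and PLZF +/+ cells, barely over the background, and the kinase gene Blk at 146 on all 3 arrays. Those below it include Cd79a, a signalling chain of the B cell receptor, at 38.8, Ms4a1, which encodes CD20, at 34.0 and the B cell factor Ebf1 at 39.5, each on all 3 arrays. Of the 15, 4 were higher in PLZF lu/lu than in PLZF +/+, 1 lower and 10 equal. Over all probe sets above background on any array these shares were 21.9%, 34.8% and 43.2%. The summed intensity of the 15 was 2842 in PLZF lu/lu, 2809 in PLZF +/lu and 2993 in PLZF +/+ cells. Much of that sum is Cd79b, the partner of Cd79a, at 1406, 1440 and 1658 in the same order. Of 5 plasma cell genes, Xbp1 and Sdc1 were above background on each array and the other 3 on none, among them Jchain, which links IgM and IgA units, at 34.3 in PLZF lu/lu and 31.7 in the other genotypes. The part of B cells or plasma cells in the Ig values was not tested.

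Regulators known to act on germline transcription at these loci differed by more than 2-fold between PLZF lu/lu and PLZF +/+ in 1 case. That is 1 of 26 measured, against 0.589% of all probe sets. Id2, an inhibitor of the E proteins that open antigen receptor loci, was at 4554 in PLZF lu/lu, 9322 in PLZF +/lu and 13326 in PLZF +/+ cells. Its relative Id3 was at 2461, 1628 and 2052, and the E protein genes Tcf3 and Tcf12 at 1270, 1269 and 1314 and at 4573, 4262 and 4043. Of 26 measured regulators of a list of 28, 6 were higher in PLZF lu/lu than in PLZF +/+, 10 lower and 10 equal. Their median log2 difference was 0.00. The shares higher, lower and equal among all probe sets above background on any array were 21.9%, 34.8% and 43.2%. Il7r, the IL-7 receptor chain whose signal opens the γ locus, was at 12140 in PLZF lu/lu, 12913 in PLZF +/lu and 11857 in PLZF +/+ cells, and did not show the order seen at TCRγ. That order, with PLZF lu/lu lowest and PLZF +/+ highest, was held by 8 of the 26, all above background. These were Id2, Runx1, Runx3, Gata3, Stat5b, Bcl11b, Ikzf3 and Myb. As given above, 10.9% of the probe sets above background on any array had it. The list was chosen with earlier results of these data known, so neither 1 of 26 nor 8 of 26 can be weighed against its share. The order counts differences of any size, and PLZF lu/lu minus PLZF +/+ was only -0.07 on the log2 scale for both Stat5b and Bcl11b. Runx3 was at 825, 882 and 1087 and Gata3 at 3175, 3260 and 4297 in PLZF lu/lu, PLZF +/lu and PLZF +/+ cells. The part of any of these regulators in the TCRγ or TCRα values was not tested.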

How the data were processed

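The authors hybridised 1 Affymetrix Mouse Gene 1.0 ST array per genotype, used GenePattern modules (ExpressionFileCreator, MultiplotPreprocess, Multiplot) for the scans and removed normalization controls. The deposited values are intensities on a linear scale, used here without further scaling. The labels and methods do not state how the authors corrected background, summarised probes or scaled arrays. The submitters' processing notes name build mm 8. All value columns were matched to a sample. Symbols came from the platform annotation, and all 46 distinct segment symbols were found in the GRCm38.p6 RefSeq table, which was used for names and gene order only. None of the 46 was in the promoter table, so the planned search for recombination signals was not run.

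Intensities were compared on the log2 scale, with values within 1e-06 taken as equal. Array number limits the precision. Members named one by one are the constant region probe sets, the 5 with the highest mean in each locus and the 2 with the largest difference in each direction, from those above background. Others, and the third pair of genotypes, were chosen after their values were seen. For listed genes with several probe sets the one with the highest mean was used. The probe sets and gene lists were chosen with earlier results of these data known. Alternatives were quantile normalization, median centring, adding 32 to each intensity, only probe sets with 1 symbol, thresholds of 1.5-fold and 3-fold, other background levels, and PLZF +/+ averaged with PLZF +/lu. Counting was tested on simulated data. Python 3.11.15, numpy 2.4.6, pandas 2.3.3 and matplotlib 3.10.9 were used.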

Additional observations from a re-analysis of the deposited data

How the results depend on the processing

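The count of 0 of 50 antigen receptor probe sets past 2-fold between PLZF lu/lu and PLZF +/+ became 1 at 1.5-fold. It stayed 0 under the other alternatives for which it was counted, which do not include PLZF +/+ averaged with PLZF +/lu. The count between PLZF +/lu and PLZF +/+ was 0 under all the alternatives for which it was counted. The count of 1 between PLZF lu/lu and PLZF +/lu became 0 at 3-fold and 0 with only probe sets of 1 symbol, since probe set 10415015 lists several. With PLZF +/+ averaged with PLZF +/lu, that probe set passed 2-fold, with a log2 difference of 1.07. Under the same averaging Trav13-5 (-0.077) and the Trav3n-3 and Trav3-3 probe sets 10414805 (-0.14) and 10414967 (-0.0070) turned to lower in PLZF lu/lu. Probe set 10414960, equal in PLZF lu/lu and PLZF +/+ as deposited, was lower there too (-0.051). This is because PLZF +/lu was highest in each of them. The TCRγ probe sets kept their direction under every scaling. Under quantile normalization 9 of the 10 TCRα probe sets above background were higher in PLZF lu/lu and 1 lower, and under median centring all 10 were higher, since values equal as deposited then differ slightly. The number above background was 11 with the 99th percentile of the olfactory receptors, an intensity of 178, in place of the 95th. No Ig probe set was above that level on each array, so all 11 belonged to TCR loci. The number was 15 with olfactory receptor probe sets of several symbols included, a level chosen after seeing the data. No replicate could be left out and no paired analysis was possible because each genotype has 1 array.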
